A study of Homo sapiens with 16 samples.

Results

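The replication-dependent histone gene clusters were examined in total RNA-seq libraries of HEK293 cells, a human embryonic kidney line, with and without depletion of Top1. The genes were taken by a rule on position and length, which was set with earlier results of these data known. They were the rows of the authors' gene table (hg19) that span less than 3000 bp and lie in either of 2 regions, on chromosome 6 (the rows run from 26017260 to 27861669) and on chromosome 1 (149783283 to 149859466). This rule took 57 of the 19333 rows, 47 on chromosome 6 and 10 on chromosome 1, and they are called histone-cluster rows here. Each row is a gene listed by an Ensembl transcript identifier, and the tables of gene names at hand held 0 of these identifiers. The rows are therefore given by identifier and position, no histone class is assigned to any of them, and a row within these limits that is no histone gene would be counted with the rest.

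Replication-dependent histone genes encode the core and linker histones that package newly made DNA. They lie in clusters, most of them have no introns, and their messenger RNAs end in a stem-loop bound by the stem-loop binding protein instead of a poly(A) tail. Their RNA rises as cells enter S phase and is degraded when DNA synthesis stops. Libraries made from total RNA after removal of ribosomal RNA keep such transcripts, which libraries selected for poly(A) largely lose. Top1 relaxes the supercoils that transcription and replication leave in DNA.

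Cells were transfected 2 times with a negative control RNA (scramble, 2 libraries) or with 10 nM of siRNA against Top1 (Top1 KD, 2 libraries) and harvested 5 days after the first transfection. Which Top1 siRNA these libraries received is not given in the sources used here, and HEK293 is a single cell line. The labels name the libraries replicate 1 and replicate 2 of each group and describe the samples of the study as being of different passages. Reads on genes numbered 15258182 and 18366226 in scramble and 14681774 and 16503586 in Top1 KD libraries. Sampling noise alone did not account for the spread between replicates (chi-square divided by its degrees of freedom, 10.6 for scramble and 15.4 for Top1 KD). The TOP1 transcript could not be looked up without gene names, so the groups rest on the labels.

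Short rows made up most of the set. The median span was 472 bp, against 21730 bp over all rows, and 40 of the 57 rows spanned less than 600 bp, a length that 1.39% of all rows have. The strands were nearly balanced, with 27 rows on the plus and 30 on the minus strand. Where neighbouring rows lay more than 500 kb apart the set was divided, which gave 4 groups. The chromosome 1 group (149783283 to 149859466) held 10 rows. On chromosome 6, a first group (26017260 to 26273622) held 28 rows, the second (27100832 to 27115317) held 3 and the third (27775257 to 27861669) held 16, with gaps of 827 kb and 660 kb between them.

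Of the 57 rows, 34 reached 10 normalized counts in 2 or more libraries and were tested. A normalized count is the number of reads on a row divided by the size factor of the library, without scaling for length. No read was counted in any library on 15 rows, 13 of them on chromosome 6 and 2 on chromosome 1, and the other 8 untested rows had between 0.220 and 3.25 normalized counts on average. Their reads mostly came from a single library, as with the 12 reads of ENST00000331442 (chromosome 6, 27834570 to 27835359) in scramble replicate 2 and the 12 reads of ENST00000369161 (chromosome 1, 149813505 to 149814478) in Top1 KD replicate 1. A share of 26.3% of the set was thus listed at 0 throughout, compared with 19.7% of all rows and 63.5% of the other rows under 3000 bp. Only uniquely mapped reads were kept by the authors, and histone genes include near-identical copies, so a value of 0 or a low value does not show that a gene was silent. The part of shared sequence in these values was not tested. On chromosome 1, 2 rows of exactly 1655 bp lie on opposite strands, and neither was tested. One of them, ENST00000369158 (149811110 to 149812765), was at 0 in all 4 libraries, and the other, ENST00000403683 (149824181 to 149825836), had 5.28 normalized counts in scramble replicate 2 and 0 elsewhere.

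Levels differed widely among the tested rows. Per kb of span, the scramble mean lay between 14.8 and 10718 normalized counts, with a median of 1670. ENST00000244661 (chromosome 6, 26031817 to 26032288, minus strand) had the highest level per kb, followed by ENST00000331491 (chromosome 1, 149784826 to 149785236, minus strand) with 10320, and the gap between them was smaller than the spread between the scramble libraries. ENST00000377803 came next with 8102 and then ENST00000343677 with 6634 normalized counts per kb. By normalized count without regard to length, the 5 highest rows (these 4 and ENST00000369155, which spans 2222 bp) took 50.9% and 54.5% of the summed count of the set in scramble and 48.4% and 51.0% in Top1 KD cells.

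The summed count of the 57 rows was lower in Top1 KD cells. It was 52130 and 58906 normalized counts in scramble and 36643 and 44784 in Top1 KD cells. These sums are 55518 ± 4791 (SD, n = 2) and 40713 ± 5757 (SD, n = 2), a reduction of 26.7%, and the groups did not overlap. The sums over all 19333 rows did not overlap either, and were 1.70% lower in Top1 KD cells. As a share of all reads on genes, the set held 0.320% and 0.365% in scramble and 0.231% and 0.280% in Top1 KD libraries. With 2 libraries against 2, the smallest p of a two-sided exact permutation test is 0.33, so the sum is a description. In RNA from whole cultures, fewer cells in S phase and less histone RNA per cell cannot be told apart.

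A single row carried most of the difference between the scramble libraries. ENST00000369155 (chromosome 1, 149856010 to 149858232, minus strand) had 8588 and 15083 normalized counts in scramble and 6391 and 8959 in Top1 KD cells, and it made up 16.5% to 25.6% of the sum. Without it, the sum was 43542 and 43823 in scramble and 30252 and 35824 in Top1 KD cells. The scramble libraries were then nearly equal and both Top1 KD libraries remained below them.

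**Figure D1:**
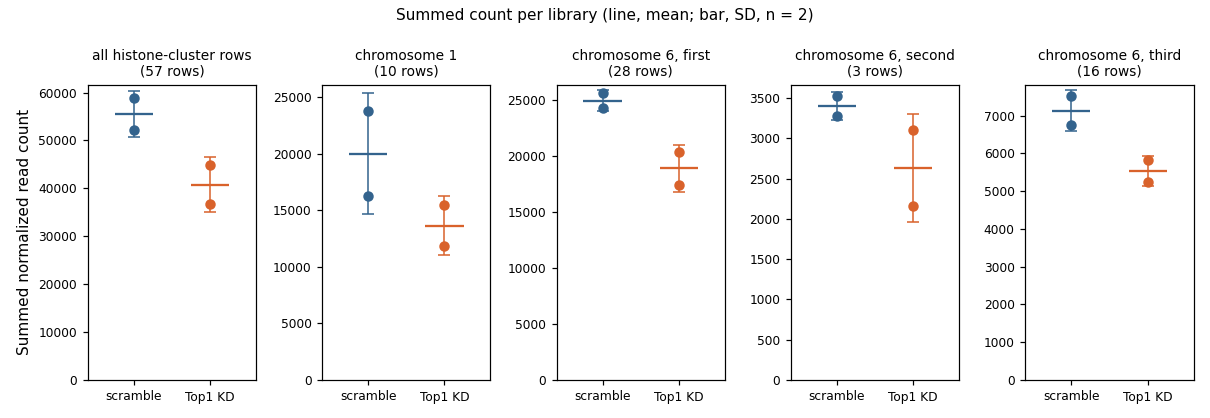
Summed normalized read count (vertical axes, from 0) of all 57 histone-cluster rows and of the 4 groups of neighbouring rows in each library, with the mean (line) and SD (bar, n = 2) of scramble (blue) and Top1 KD (orange) libraries. In each panel both Top1 KD libraries lie below both scramble libraries.

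The reduction was seen in each of the 4 groups of neighbours. On chromosome 1 the summed count was 16219 and 23785 in scramble and 11799 and 15490 in Top1 KD cells, 31.8% lower. In the first group of chromosome 6 it was 25630 and 24314 against 17433 and 20370, 24.3% lower. The second and the third groups were 22.7% and 22.5% lower. In all 4 groups neither Top1 KD library reached the lower scramble library, an order also found for the sum over all rows. Among the 4 groups the smallest gap in proportion was on chromosome 1, where ENST00000369155 holds most of the count. Without that row the sums were 7631 and 8702 in scramble and 5408 and 6531 in Top1 KD cells.

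The change of each row was estimated with limma across all 13086 tested genes, after adding 1 to each normalized count and taking log2, a scale that understates the change of rows with few counts. A row was called at an adjusted p under 0.05 (Benjamini-Hochberg over all tested genes) and 1.5-fold or more in either direction. Of the 34 tested rows, 5 were called, all of them lower in Top1 KD cells. Among all tested genes 8.15% were called and 4.26% were called lower. At an adjusted p under 0.05 without the fold threshold, 9 of the 34 rows were lower, where 7.63% of all tested genes were. No row was called higher by limma, edgeR or DESeq2 (0 each), and 0 of the 34 had an unadjusted p under 0.05 in that direction by limma, which 14.6% of all tested genes had. The median log2 fold change of the 34 rows was -0.35, with quartiles of -0.64 and -0.16, and that of all tested genes was 0.0025. The estimate was below 0 for 29 of the 34 rows, and for 49.8% of all tested genes. The number called depended on single libraries: it was 1 without scramble replicate 2, 2 without Top1 KD replicate 1, 4 without scramble replicate 1 and 7 without Top1 KD replicate 2, again all lower. The share of all tested genes called lower moved as well, to 1.51%, 2.67%, 1.08% and 5.73% in the same order, so the 1 row called without scramble replicate 2 is a share near that of all genes.

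One of these 34 rows passed the filter on low values through the scramble libraries alone and so had to be lower. With a filter on the mean over all 4 libraries, chosen after the data were seen, 33 rows were tested, 5 were called, all lower, and the median was -0.35. ENST00000338379 (chromosome 6, 26107640 to 26108364), the row in question, was picked out after its values were seen. It had 11.7 and 15.0 normalized counts in scramble cells, from 11 and 17 reads, and no read in either Top1 KD library. The ratio of its scramble mean to a floor of 3 reads per library was 4.34, which leaves out the spread between replicates. The limma 95% interval of its log2 fold change ran from -7.98 to 0.31 and so includes 0. Its limma adjusted p was 0.206.

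**Figure D2:**
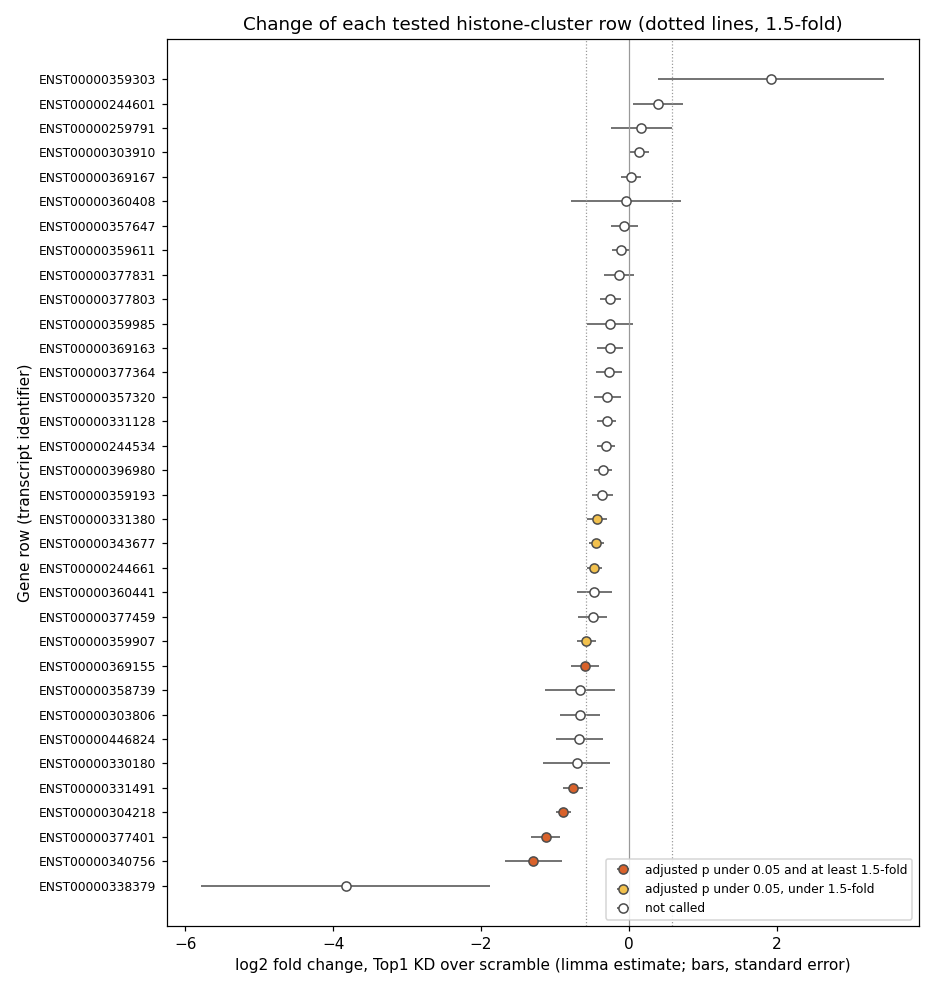
Change of the 34 tested histone-cluster rows: log2 fold change of Top1 KD over scramble (horizontal axis, limma estimate, bars give the standard error, dotted lines 1.5-fold) for each row, ordered by size. The 5 called rows (orange) and the 4 rows past the adjusted p alone (yellow) all lie below 0, and 5 rows lie above 0, none of them called.

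The called row with the largest fold was ENST00000340756 (chromosome 6, 26188938 to 26189304, minus strand). It had 212 and 201 normalized counts in scramble cells and 56.3 and 125 in Top1 KD cells. Both Top1 KD values were below both scramble values, but they differed 2.22-fold from each other. The log2 fold change was -1.29 (SE 0.38; adjusted p by limma 0.0329). Its size rested on single libraries, at -0.72 without Top1 KD replicate 1 and -1.86 without Top1 KD replicate 2. ENST00000377401 (chromosome 6, 27775257 to 27775709, minus strand), in the third group, had 935 and 1101 normalized counts in scramble and 372 and 580 in Top1 KD cells. The groups were far apart, and the log2 fold change was -1.12 ± 0.20 (SE; limma adjusted p = 0.00159). Without scramble replicate 2 neither of these rows was called, and ENST00000340756 was also not called without scramble replicate 1 or Top1 KD replicate 1.

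ENST00000304218 (chromosome 6, 26156559 to 26157343, plus strand) had the most even replicates of the called rows. Its normalized counts were 3880 and 3917 in scramble and 2139 and 2080 in Top1 KD cells, so replicates were within 1.03-fold and the groups were separated by a log2 fold change of -0.89 (SE 0.10; adjusted p by limma 9.18e-05). It was called in each of the 4 fits that left out 1 library. ENST00000331491, the chromosome 1 row with the second highest level per kb, had 3851 and 4612 normalized counts in scramble and 2143 and 2915 in Top1 KD cells. The values did not overlap and the log2 fold change was -0.75 (SE 0.13; adjusted p by limma 0.00188). ENST00000331491 was not called without scramble replicate 2 or without Top1 KD replicate 1.

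The fifth called row was the most abundant one. ENST00000369155 had a log2 fold change of -0.59 (SE 0.19; adjusted p by limma 0.0478), just past both thresholds. Its scramble libraries differed 1.76-fold from each other, and Top1 KD replicate 2 was above scramble replicate 1, so the groups overlapped. Without scramble replicate 2 its log2 fold change was -0.18 and it was not called. It was also not called without either Top1 KD library, and DESeq2 on the recovered reads gave an adjusted p of 0.428.

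A further 4 rows passed the adjusted p and stayed under 1.5-fold. ENST00000359907 (chromosome 6, 26021907 to 26022278, plus strand) had 1492 and 1528 normalized counts in scramble and 953 and 1078 in Top1 KD cells, with a log2 fold change of -0.57 (SE 0.13; adjusted p by limma 0.00825). ENST00000244661 had 5230 and 4866 in scramble and 3376 and 3960 in Top1 KD cells, for a log2 fold change of -0.46 (SE 0.10; adjusted p by limma 0.00806). ENST00000343677 (chromosome 6, 26055968 to 26056699, minus strand) had 5067 and 4631 against 3407 and 3737, and ENST00000331380 (chromosome 1, 149858525 to 149858961, plus strand) had 1190 and 1235 against 864 and 937 normalized counts. In each of these 4 rows the lower scramble library exceeded the higher Top1 KD library. Among the rows of highest count, ENST00000377803 (chromosome 6, 26104104 to 26104518, plus strand) did not pass the test. It had 3773 and 2936 normalized counts in scramble and 2409 and 3251 in Top1 KD cells, and the groups overlapped (log2 fold change -0.25, limma adjusted p = 0.258).

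**Figure D3:**
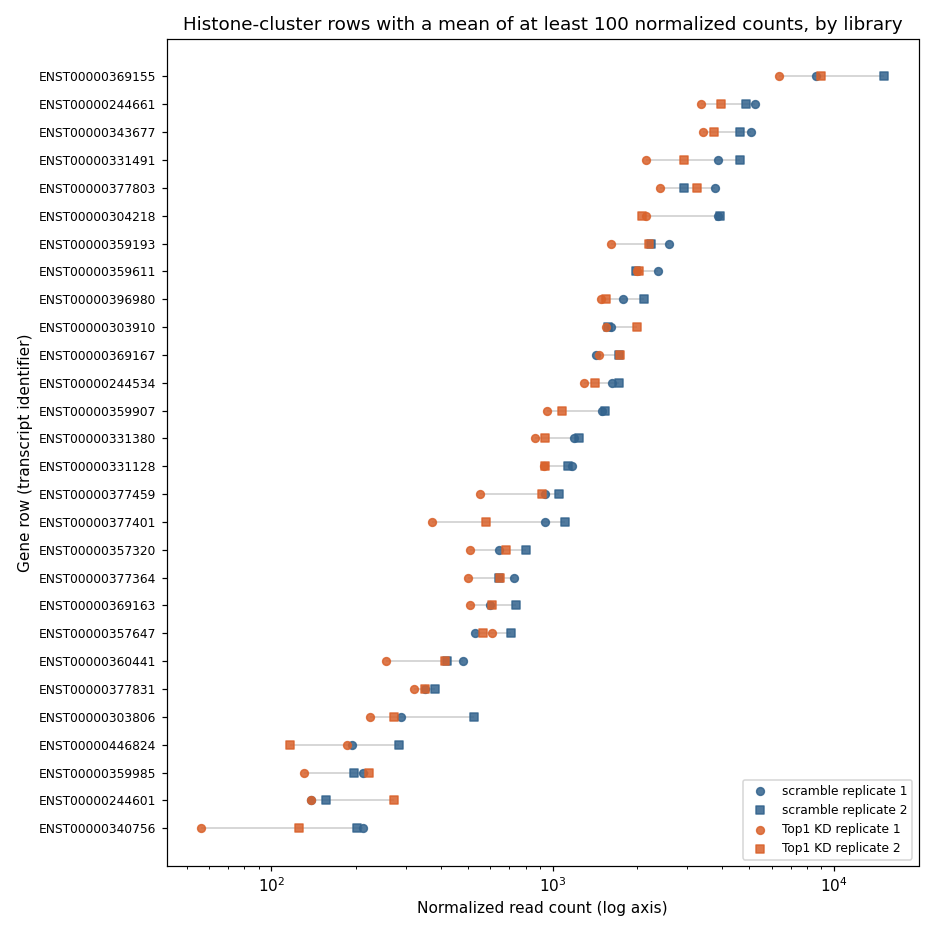
Normalized read count (horizontal log axis) of the 28 histone-cluster rows whose mean reached 100 normalized counts in each of the 4 libraries, ordered by mean. Top1 KD replicate 1 (orange circles) is the lowest library for 23 of the 28 rows. In 17 rows both Top1 KD libraries lie below both scramble libraries, as in 30.2% of all genes at that level.

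Among the other rows of 100 or more normalized counts, several had separate groups and did not pass the test. ENST00000396980 (chromosome 6, 27806440 to 27806888, plus strand) had 1770 and 2105 normalized counts in scramble and 1485 and 1540 in Top1 KD cells (log2 fold change -0.35, limma adjusted p = 0.0671). ENST00000244534 (chromosome 6, 26234440 to 26235216, minus strand) had 1618 and 1714 against 1293 and 1410 (log2 fold change -0.30, limma adjusted p = 0.109). ENST00000331128 (chromosome 1, 149859019 to 149859466, minus strand) had 1168 and 1130 against 928 and 939 (log2 fold change -0.30, limma adjusted p = 0.147). In ENST00000244534 and ENST00000331128 the gap between the groups was wider than that between replicates of either group, whereas the scramble libraries of ENST00000396980 lay further apart than the groups. ENST00000360441 (chromosome 6, 26204858 to 26206266, plus strand) had 481 and 421 normalized counts in scramble and 255 and 415 in Top1 KD cells, so that Top1 KD replicate 2 was close to the scramble libraries and replicate 1 was well below them. ENST00000446824 (chromosome 6, 26250370 to 26250835, minus strand) went the other way, with 193 and 284 in scramble and 186 and 116 in Top1 KD cells. ENST00000357647 (chromosome 6, 26020718 to 26021186, plus strand) overlapped, with 527 and 710 in scramble and 609 and 563 in Top1 KD cells (log2 fold change -0.06, 95% interval -0.45 to 0.32).

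Counted by library, both Top1 KD libraries were below both scramble libraries for 19 of the 34 tested rows, an order found in 29.0% of all tested genes. The opposite order was found for 0 of the 34 rows and for 28.8% of all tested genes, and the remaining 15 rows overlapped. Without the row that passed through scramble alone, the first count was 18 of 33. These counts share 4 libraries and are not independent of each other from row to row.

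The reduction was not the same in the 2 Top1 KD libraries. Over the 28 rows whose mean reached 100 normalized counts, the median log2 ratio to the scramble mean was -0.50 in Top1 KD replicate 1 and -0.19 in Top1 KD replicate 2. Replicate 1 was below the scramble mean for 28 of the 28 rows and replicate 2 for 24. Between the Top1 KD libraries, replicate 2 was higher for 25 rows, with a median difference of 0.27 on the log2 scale, whereas over the 10308 genes at that level the median difference was -0.0025. The median size of the difference between replicates was 0.18 for scramble and 0.32 for Top1 KD in these rows, compared with 0.14 and 0.18 over the 10308 genes. The estimated change was larger than both replicate differences for 11 of the 28 rows. For this count and for the counts below the scramble mean, the like shares over the 10308 genes were not counted.

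**Figure D4:**
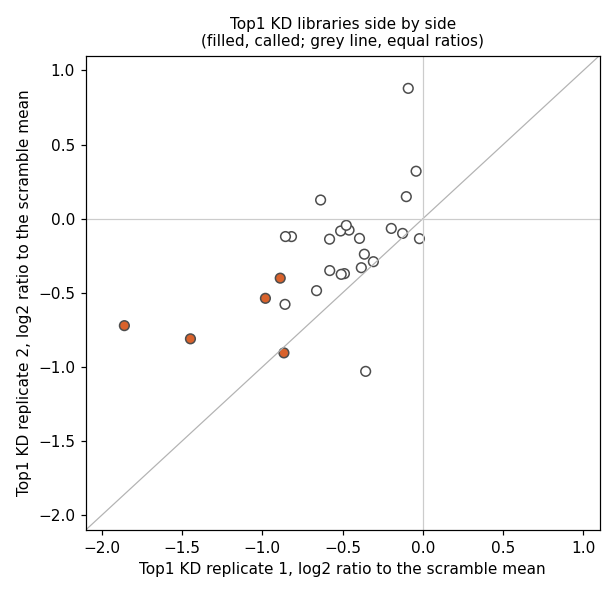
Log2 ratio to the scramble mean in Top1 KD replicate 1 (horizontal axis) and replicate 2 (vertical axis) for the 28 histone-cluster rows whose mean reached 100 normalized counts, with called rows filled. All 28 rows lie left of 0, 24 lie below 0, and 25 lie above the line of equal ratios.

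Rows of high and of middle level shifted by a like amount. The 15 rows whose mean reached 1000 normalized counts had a median log2 fold change of -0.36, with 3 called and 7 past the adjusted p, and the 13 rows between 100 and 1000 had a median of -0.29, with 2 called and 2 past the adjusted p. Over all tested genes at these levels the medians were 0.0049 and 0.026, with 3.38% and 6.05% called lower and 12.1% and 7.11% lower at the adjusted p alone. Across the 28 rows, Spearman's rho between the log2 fold change and the mean count was -0.094, and that with the span was 0.17. These correlations are across rows that share the same libraries. By length, the median was -0.33 for the 24 tested rows under 600 bp, -0.44 for the 5 from 600 to under 1000 bp and -0.36 for the 5 of 1000 bp and over. By strand it was -0.35 for 16 plus-strand rows and -0.37 for 18 minus-strand rows, and 4 of the 5 called rows were on the minus strand. The differences between these classes were not tested.

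Within the 4 groups, the median log2 fold change was -0.43 for 5 tested rows on chromosome 1, -0.28 for 18 in the first group of chromosome 6, -0.42 for 2 in the second and -0.35 for 9 in the third. The second group had the least stable median, which was -0.13 without Top1 KD replicate 1 and -0.72 without Top1 KD replicate 2, and the first group had -0.18 and -0.46 in these fits. The median of the third group was -0.23 without scramble replicate 2. The called rows were 2 of 5, 2 of 18, 0 of 2 and 1 of 9 in this order, all lower, beside 4.26% of all tested genes called lower, and with so few rows a group the counts do not set one group apart from another. In the second group, ENST00000359193 (27100832 to 27103070) had 2591 and 2230 normalized counts in scramble and 1610 and 2190 in Top1 KD cells, and ENST00000377459 (27114861 to 27115317) had 940 and 1052 against 550 and 916. Neither overlapped between the groups, and neither passed the test (limma adjusted p = 0.0995 and 0.110).

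Histone genes often share a promoter region in pairs on opposite strands. In the set, 8 pairs lay on opposite strands with starts less than 1 kb apart, reading away from each other, and in 6 pairs both rows were tested. Both estimates were below 0 in 5 of the 6 pairs and above 0 in 1. As 29 of the 34 tested rows had an estimate below 0, these counts do not show that paired rows change together. ENST00000369155 and ENST00000331380, with starts 293 bp apart, had log2 fold changes of -0.59 and -0.43. ENST00000377401 and ENST00000358739, 190 bp apart, had -1.12 and -0.66, although the second had only 72.6 and 99.4 normalized counts in scramble and 70.3 and 40.7 in Top1 KD cells and did not pass the test. ENST00000359611 and ENST00000303806, 240 bp apart, had -0.11 and -0.66, neither of them past the test. The pair with estimates above 0 was ENST00000244601 and ENST00000303910 (293 bp apart), with 0.40 and 0.14.

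A few rows showed no reduction. ENST00000369167 (chromosome 1, 149783283 to 149783914, minus strand) had the smallest change of all tested rows. It had 1422 and 1717 normalized counts in scramble and 1461 and 1740 in Top1 KD cells, for a log2 fold change of 0.03 with a 95% interval from -0.26 to 0.31, so a reduction of 1.5-fold lies outside the interval. It lies close to ENST00000331491 on the same strand, whose interval ran from -1.04 to -0.47. ENST00000303910 (chromosome 6, 26217165 to 26217711, plus strand) had 1607 and 1577 in scramble and 1545 and 1987 in Top1 KD cells, with an interval from -0.14 to 0.42. In total 5 rows had an estimate above 0, from 0.03 to 1.93, and their lowest limma adjusted p was 0.439. The highest of these, ENST00000359303, had 0 and 14.1 normalized counts in scramble and 16.2 and 11.6 in Top1 KD cells, too few to give a precise fold.

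Some counts may be shared between rows. ENST00000377831 (26197068 to 26199521) covers all 392 bp of ENST00000341023 on the same strand, and the second was at 0 while the first had 352 and 383 normalized counts in scramble and 320 and 351 in Top1 KD cells. How reads on overlapping rows were assigned is not given in the sources used here. Another 2 rows, both at or near 0, overlap another row on the opposite strand.

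Rows of 3000 bp and over within the same windows were set beside the histone-cluster rows. Of 20 such rows 17 were tested and 0 were called by limma, edgeR or DESeq2. Among all tested genes limma called 8.15%, and with 17 rows a count of 0 is near that share. By limma 2 rows had an unadjusted and 1 an adjusted p under 0.05. The 1 row was lower in Top1 KD cells, 5.88% of the 17, beside 7.63% of all tested genes. The 17 tested rows had a median log2 fold change of -0.01. The summed count of the 20 rows was 10318 and 10990 in scramble and 9509 and 10230 in Top1 KD cells. It was 7.36% lower, and the groups did not overlap. The 526 other tested rows under 3000 bp in the table had a median of -0.07, with 4.75% called lower, and both Top1 KD libraries were below both scramble libraries in 28.9% of them. The difference between the histone-cluster rows and these sets was not tested.

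**Figure D5:**
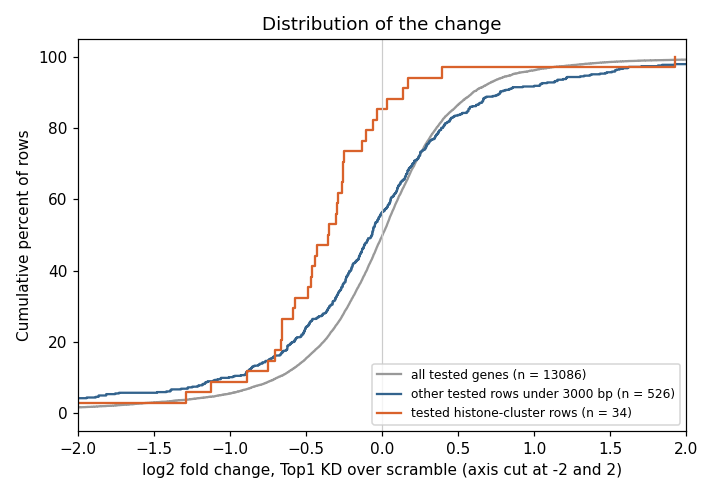
Cumulative percent of rows (vertical axis) by log2 fold change of Top1 KD over scramble (horizontal axis, shown from -2 to 2) for all 13086 tested genes (grey), the 526 other tested rows under 3000 bp (blue) and the 34 tested histone-cluster rows (orange). The orange line crosses 50% at -0.35, the grey line at 0.0025 and the blue line at -0.07.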

How the data were processed

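Total RNA of HEK293 cells (2 scramble and 2 Top1 KD libraries) was analysed, and the other assays of the study (16 samples in all) were not used here. Per the submitters' processing notes and the methods, single-end reads were cleaned with fastq-mcf, mapped to hg19 with TopHat2 2.0.5 and counted with HTSeq, keeping uniquely mapped reads. The strand setting and the annotation release are not given in the sources used here. The deposited values are a signal, read counts divided by the DESeq2 size factor of the library, with 1 column per library and 0 columns left without a sample. Within 0.1 reads (or 0.1% of the count, if larger), 100% of the values above 0 came out as a whole number of reads, so reads were recovered by rounding. The deposited table also holds the authors' own comparison (fold change, standard error, test statistic, p-values and call), which was not used.

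Genes that reached 10 normalized counts in 2 or more libraries were fitted on log2(normalized count + 1) by limma 3.58.1 (R 4.3.3), with a mean-variance trend. edgeR 4.0.16 and DESeq2 1.42.0 on the recovered reads were alternatives. On these reads edgeR called 1089 genes and DESeq2 1098, compared with 1066 by limma. The method was tested on simulated data with true changes of 2-fold or more, which does not show how well smaller changes are recovered. The rows, groups, lists and tests were chosen with earlier results of these data known. Rows named individually were the 5 with the highest mean, up to 8 called falls and 8 called rises, the smallest change, and any row with a mean of 50 or more whose replicates differed over 3-fold (0 rows). Others were added to describe groups and pairs, after their values were seen. Planned lists of histone RNA processing and S phase genes, and sequences, are not given because no identifier was paired with a name. P-values rest on the spread between these libraries, which may be technical in part. In limma the spread of a row is drawn towards that of genes with a like level. With 2 libraries per group, intervals are wide for rows of few reads.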

Additional observations from a re-analysis of the deposited data

How the results depend on the processing

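The number of called rows was 5 in the main fit, all lower, and between 4 and 5 with library-size scaling, other filters, pseudocounts of 0.1 and 5, edgeR and DESeq2. With a replicate block it was 5 as well, with the same 5 rows, and the replicate block changed no call named here. Of all tested genes between 3.39% (without a filter) and 5.14% (filter of 50 normalized counts) were called lower in these settings. The correlation of same-numbered deviations was -0.010 over all tested genes and -0.355 over the 34 tested rows. These values do not show whether same-numbered libraries were prepared together. With the block the limma adjusted p of ENST00000369155 was 0.00171. A lower fold threshold or none gave 9 called rows, a threshold of 2 gave 2, and rows under 600 bp alone gave 3, fewer or more by construction. Without a fold threshold 7.63% of all tested genes were lower. The like shares for the other thresholds and for rows under 600 bp were not counted. Leaving out each library in turn gave from 1 to 7 called rows, all lower, with 1 without scramble replicate 2 and 2 without Top1 KD replicate 1. Of all tested genes 2.41% (without scramble replicate 1), 3.24% (without scramble replicate 2), 4.37% (without Top1 KD replicate 1) and 10.2% (without Top1 KD replicate 2) were called in the same fits, in either direction. In these 4 fits the lone library is assumed to vary like the other group. The median log2 fold change of the tested rows ran from -0.46 (without Top1 KD replicate 2) to -0.26 (without Top1 KD replicate 1). In all 4 fits 25 of the 34 rows were below 0. That sign is fixed in advance for the 19 rows in which both Top1 KD libraries were below both scramble libraries. The like share over all tested genes was not counted. The log2 ratio of the summed counts ran from -0.60 to -0.31 over the same fits, against -0.45. ENST00000369167 changed sign, from -0.107 to 0.165, and was not called in any fit. ENST00000369155 was not called with library-size scaling, without a filter, with a pseudocount of 0.1, by DESeq2, or in 3 of the 4 fits without a library, and ENST00000340756 was not called without a filter or in 3 of those 4 fits. The causes were not tested. The no-filter and DESeq2 settings also called ENST00000338379. At this depth, its 11 and 17 scramble reads against no Top1 KD read give no estimate of the fold.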
